A study of Homo sapiens with 12 samples.

Results

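The cytosolic ribosome of human cells is built from ribosomal RNA and a fixed set of proteins whose genes are scattered over nearly all chromosomes. These genes were taken from the count table by symbol: protein-coding names beginning with RPL, RPS or RPLP and a number, and RPSA, without the RPS6K kinases and the Y-linked copies. The rule found 85 genes among 63677 rows, and it used no measured value. Of these, 84 had enough reads to be tested among 26076 genes: 32 of the small subunit, 49 of the large subunit and 3 of the stalk. The remaining gene, RPL39L, a paralog known from testis, had 4 reads in all 12 libraries together.

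RNA was sequenced from LNCaP, an androgen-sensitive line established from a human prostate cancer metastasis, grown in hormone-proficient medium. USP22 is a deubiquitinase of the SAGA transcription coactivator complex, and the study asked which transcripts change when its level is raised or lowered. The groups, of 3 libraries each, were USP22 overexpression (LN-USP22hi) with its pLPLUC vector control, and shRNA-mediated USP22 depletion (LN_shUSP22) with an shRNA control. The cells of both shRNA groups, control included, received 1 µg/mL doxycycline every 48 hours for 5 days, and the labels give no doxycycline for the other 2 groups. The labels name a single shRNA against USP22, and they do not say whether a line is a clone or a pool or whether the replicates are separate cultures. P-values therefore measure only the spread between these libraries, which may be technical.

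Ribosomal protein mRNAs are among the most abundant of a growing cell, and their proteins are made in matched amounts because a ribosome needs 1 of nearly each. Most of them begin with a C followed by an unbroken run of pyrimidines, the 5′ terminal oligopyrimidine (5′TOP) tract. When the kinase complex mTORC1 is inactive, the protein LARP1 binds the capped tract, holds these mRNAs out of translation and keeps them from decay. Surplus ribosomal proteins are degraded, and some that stay unassembled, such as RPL5 and RPL11, bind MDM2 and so stabilise p53.

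The starts of 10 genes that recur in the results are shown from 25 bases before to 20 bases after a RefSeq start (GRCh38.p14), read on the strand of the gene. Capitals mark a tract, defined as a C lying from 5 bases before to 5 bases after the annotated start and followed by at least 4 further C or T. Those from RPS7 to RPS18 have a tract in this window, and RPS27L, RPL7L1 and RPL10L, all 3 of them paralogs, have none.
RPS7 (chr2:3575235-3575279, plus strand): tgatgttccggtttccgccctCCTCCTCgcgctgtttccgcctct
RPS23 (chr5:82278335-82278379, minus strand): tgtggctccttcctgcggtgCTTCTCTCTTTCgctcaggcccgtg
RPL26 (chr17:8383174-8383218, minus strand): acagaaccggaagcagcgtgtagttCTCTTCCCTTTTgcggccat
RPL4 (chr15:66504836-66504880, minus strand): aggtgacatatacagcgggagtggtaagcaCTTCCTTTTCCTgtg
RPL22L1 (chr3:170870176-170870220, minus strand): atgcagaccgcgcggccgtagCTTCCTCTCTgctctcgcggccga
RPS3 (chr11:75399493-75399537, plus strand): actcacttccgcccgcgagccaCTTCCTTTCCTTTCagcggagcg
RPS18 (chr6:33272050-33272094, plus strand): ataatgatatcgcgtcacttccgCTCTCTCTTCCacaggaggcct
RPS27L (chr15:63157458-63157502, minus strand): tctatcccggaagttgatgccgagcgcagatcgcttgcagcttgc
RPL7L1 (chr6:42879591-42879635, plus strand): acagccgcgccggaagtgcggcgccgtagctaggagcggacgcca
RPL10L (chr14:46651762-46651806, minus strand): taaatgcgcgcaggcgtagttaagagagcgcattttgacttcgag

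The RefSeq promoter table matched 68 of the 85 genes, with 84 starts between them. Such a tract stood at 59 of these 84 starts (70.2%), against 7408 of all 35116 starts in the table (21.1%). Tracts ran from 5 to 22 bases with a median of 10. Genes higher after depletion had one at 25 of 37 starts (67.6%), and tested genes not called there at 34 of 47 (72.3%). The 2 shares lay close together.

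Levels are given as CPM, the read counts of a gene brought to a common library size with TMM scaling, and the libraries held 77607469 to 103690001 reads. CPM is not corrected for gene length, so levels are compared between libraries and not between genes. It is a share of a library: in bulk RNA, fewer transcripts per cell and fewer cells that carry them cannot be told apart. Differences were tested for every gene in 1 edgeR quasi-likelihood model of the 4 groups. They are given as log2 fold changes with a standard error (SE), and a gene was called at a Benjamini-Hochberg adjusted p under 0.05. USP22 itself was at 1498, 1406 and 1495 CPM with overexpression, against 482, 491 and 565 CPM in the vector control. It was at 257, 265 and 251 CPM after depletion, against 480, 473 and 480 CPM in the shRNA control. The third vector control library stood apart. Its SD around its group mates over all genes was 0.587 on the log2 scale, against 0.457 and 0.46 for the other two, and mitochondrial transcripts made up 0.691% of its reads, against 1.04% and 1.24%. All 9 luminal prostate markers checked were present, androgen receptor among them.

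Taken as a share of all reads, the 85 genes differed more between the shRNA lines and the vector lines than within either pair. They made up 5.96%, 5.89% and 6.01% of reads with overexpression, against 6.12%, 6.11% and 6.34% in the vector control. Their share was 4.71%, 4.98% and 4.61% after depletion, against 4.21%, 4.22% and 4.2% in the shRNA control. The overexpression libraries were thus all slightly below their control, and the depletion libraries all above theirs. Both shRNA groups were well below both of the others.

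For the 82 genes with a mean of at least 5 CPM, each library was summarised by its median log2 difference from the vector control mean. That median was -0.11, -0.10 and -0.06 in the overexpression libraries and 0.01, -0.08 and 0.06 in the vector control libraries, so these groups overlapped. It was -0.51, -0.44 and -0.60 in the depletion libraries, against -0.73, -0.63 and -0.71 in the shRNA control libraries, with no overlap. The within-group SD of these medians, pooled over the 4 groups, was 0.0726. The summed small subunit genes stood at 0.568 ± 0.00173 of the summed large subunit genes with overexpression and at 0.566 ± 0.00404 in the vector control (SD, n = 3 each). That ratio was 0.557 ± 0.00115 after depletion and 0.566 ± 0.004 in the shRNA control. In single libraries it ran from 0.556 to 0.558 after depletion, just under the 0.562 to 0.57 of the shRNA control. Sums give most weight to abundant genes. By gene, the median log2 fold change on depletion was 0.18 in the small subunit and 0.19 in the large subunit without the stalk. Of 32 small subunit genes 29 were positive and 3 negative. Among the 3 was the abundant RPS18, with means of 1025 CPM after depletion and 1134 CPM in the shRNA control. The part of single genes in the ratio was not tested.

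**Figure D1:**
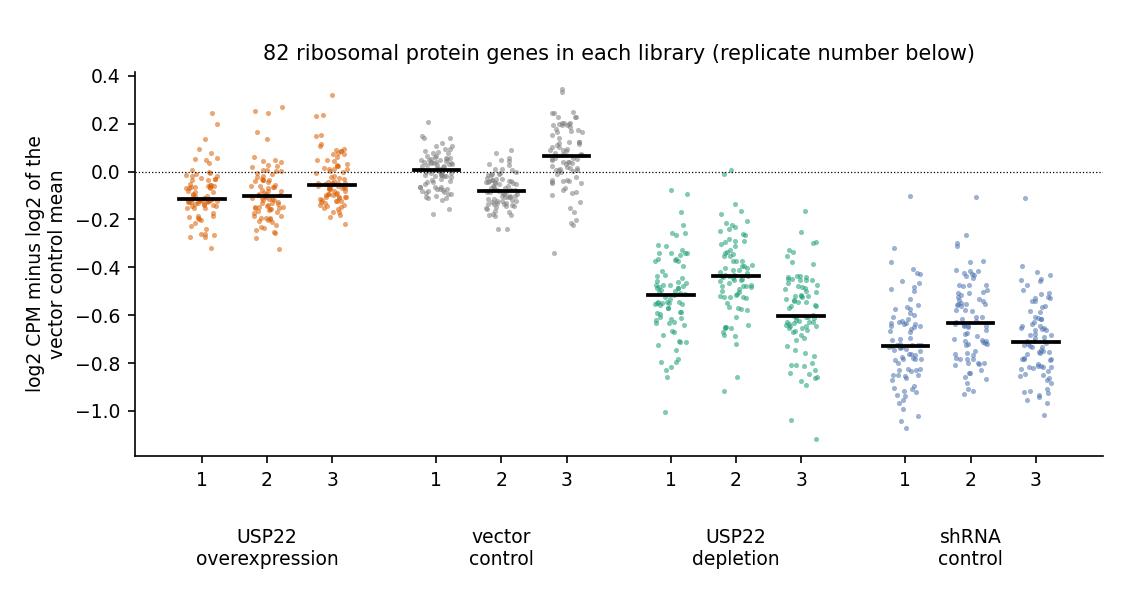
Each point is 1 of 82 ribosomal protein genes in 1 library, as log2 CPM minus the log2 of its vector control mean (vertical axis), with libraries grouped by condition and numbered by replicate (horizontal axis) and a bar at each library's median. The shRNA control medians lie between -0.73 and -0.63 and the depletion medians between -0.60 and -0.44, all below those of the overexpression and vector control libraries.

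The largest differences lay between the 2 controls. In shRNA control cells 82 of the 84 tested genes (97.6%) were lower than in vector control cells and none was higher by edgeR, DESeq2 or limma voom, where 21.3% of all tested genes were lower and 21.7% higher. At an unadjusted p under 0.05 the counts were also 82 and 0. Among all genes with a mean of at least 50 CPM, 42.9% were lower. The median log2 fold change was -0.69, or 0.62-fold, against 0.02 over all tested genes, and it was -0.11 over these 4729 more abundant genes. Libraries did not overlap for 83 of the 84 genes in the downward direction, against 24.2% of all tested genes and 44.7% of the more abundant ones. The construct, the vector and doxycycline all differ between these lines and cannot be told apart.

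RPS3, which lines the entry of the mRNA channel, had the largest called difference among genes with at least 5 CPM. It was at 454, 502 and 472 CPM in the shRNA control and at 902, 869.7 and 1096 CPM in the vector control. Its level in the shRNA control was about 0.498 of the other, with the lowest vector control library far above the highest shRNA control library (log2 fold change -1.01 ± 0.0794 SE, adjusted p = 4.51e-08). RPL13A, a large subunit protein that also silences inflammatory mRNAs, averaged 1384 ± 69.2 CPM in the shRNA control and 2686 ± 359 CPM in the vector control (SD, n = 3 each; log2 fold change -0.96). RPS9, a protein of the mRNA entry region that bears on decoding accuracy, averaged 253 ± 11.2 CPM in the shRNA control and 484 ± 113 CPM in the vector control (log2 fold change -0.94). The third vector control library was the highest of the 12 for these 3 genes.

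RPL5, a partner of 5S ribosomal RNA, was more even within its groups. It had 456, 472 and 453 CPM in the shRNA control, against 879, 851 and 880.5 CPM in the vector control (log2 fold change -0.92 ± 0.0554 SE, adjusted p = 2.74e-09). RPL21 and RPS3A, of the large and the small subunit, were lower by similar amounts, with log2 fold changes of -0.92 and -0.90. At the other end, RPL10L and RPL3L were not called (log2 fold change -0.11, adjusted p = 0.375, and -0.50, adjusted p = 0.114). Among the called genes with a mean of at least 5 CPM, the smallest differences were those of RPL26L1 (-0.34), RPS27 (-0.36) and RPL36AL (-0.38).

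Markers of other cell types moved in this comparison too. The 11 basal, stromal, blood and endothelial markers checked summed to 18.5 to 19.6 CPM in shRNA control libraries and to 6.76 to 9.93 CPM in vector control libraries. The 2 that could be tested, KRT14 and COL1A1, were both higher in the shRNA control (log2 fold change 2.54 and 1.10). The other 9, among them the defining markers KRT5, TP63, PTPRC and CDH5, were at or under 0.143 CPM in every library, with PECAM1 at 0 throughout. The 9 luminal markers summed to 6420 to 6630 CPM in shRNA control libraries and to 5000 to 5360 CPM in vector control libraries. Of these, 6 were higher and 2 lower, beside 20.9% and 42.9% of all genes with at least 50 CPM, with TMPRSS2 and KLK2 up most (log2 fold change 1.49 and 0.84). The part of either list in the ribosomal protein difference was not tested.

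Depletion of USP22 was set against the shRNA control with the same doxycycline schedule. After depletion 37 of the 84 tested genes (44.0%) were higher and none was lower by edgeR, DESeq2 or limma voom, where 9.4% of all tested genes were higher and 10.4% lower. Among all genes with a mean of at least 50 CPM, 18.1% were higher. At an unadjusted p under 0.05, 56 were higher and 4 lower. The median log2 fold change was 0.18 against 0.00 over all tested genes, and 77 of the 84 fold changes were positive. Libraries did not overlap for 56 genes upward and 4 downward, against 20.3% and 21.5% of all tested genes and 33.1% and 29.9% of those with at least 50 CPM. The shifts were narrow as well as small: their SD over the 84 genes was 0.113, against 0.258 over the genes with at least 50 CPM.

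How many genes passed depended on single libraries more than the size of the shift did. Leaving out 1 library at a time, the count ran from 14 without shRNA control replicate 1 or 3 to 66 without vector control replicate 3, which is not part of this comparison but shares the estimate of the spread. It was 16 without depletion replicate 2, 23 without depletion replicate 1 and 54 without depletion replicate 3. Over all these fits the median stayed between 0.16 and 0.25. With only the 6 libraries of the comparison, 64 genes were higher and 4 lower. Higher calls over all tested genes moved too, from 2450 of 26076 in the main fit. They numbered 1812 of 26752 and 1918 of 26719 without shRNA control replicates 1 and 3, and 1874 of 26848 without depletion replicate 2. They were 4077 of 26896 without vector control replicate 3, 2463 of 26772 without depletion replicate 3, and 4037 of 25326 with the 6 libraries. RPS7, RPS23, RPL26, RPL4, RPS6 and RPL7 were called whichever library was left out. RPS27A, RPL5, RPL10, RPL39, RPS27 and the paralogs that rose were not called without shRNA control replicate 1 or 3 or depletion replicate 2 (adjusted p from 0.0516 to 0.144). The 11 markers of other cell types summed to 14.7 to 19.8 CPM after depletion and to 18.5 to 19.6 CPM in the shRNA control, and neither KRT14 nor COL1A1 was called. The 9 luminal markers summed to 4590 to 5100 CPM after depletion and to 6420 to 6630 CPM in the shRNA control. Of these, 6 were lower and 1 was higher, beside 14.5% and 18.1% of all genes with at least 50 CPM, and the part of either list in the result was not tested.

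In the small subunit 12 of 32 genes rose. RPS7, an MDM2-binding protein mutated in some cases of Diamond-Blackfan anaemia, had the largest rise, and its start with a short tract is printed above. It was at 571, 597 and 534 CPM after depletion, against 435, 455 and 435 CPM in the shRNA control. The lowest depletion library was clear of the highest control library, and the level was 1.28-fold higher (log2 fold change 0.36 ± 0.0545 SE, adjusted p = 0.000177). RPS23, a protein of the decoding centre, was at 242, 256 and 235 CPM after depletion, against 198, 204 and 192 CPM in the shRNA control. Its groups did not overlap either (log2 fold change 0.30 ± 0.0535 SE, adjusted p = 0.000705).

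RPS6, the substrate of the S6 kinases downstream of mTORC1, averaged 1179 ± 68.8 CPM after depletion and 1013 ± 30.3 CPM in the shRNA control, and it rose (SD, n = 3 each; log2 fold change 0.22, adjusted p = 0.0128). RPS27A, made as a fusion with ubiquitin, rose by a similar amount (log2 fold change 0.24, adjusted p = 0.0239). RPS3 and the laminin receptor RPSA did not pass, although neither overlapped between groups (log2 fold change 0.20 and 0.21, adjusted p = 0.0843 and 0.0712). The same was true of RPS19 and RPS14, genes tied to Diamond-Blackfan anaemia and to the anaemia of 5q deletion (log2 fold change 0.19 and 0.18, adjusted p = 0.241 and 0.172). RPS4X, the X-linked copy of a protein that also has a Y-linked gene, overlapped between groups (log2 fold change 0.11, adjusted p = 0.305).

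In the large subunit 25 of 49 genes rose. RPL26, a protein near the exit of the nascent chain, was at 233, 246 and 220 CPM after depletion, against 178, 195 and 181 CPM in the shRNA control. RPL4, whose extension lines the exit tunnel, was at 1737, 1882 and 1646 CPM after depletion, against 1359, 1460 and 1434 CPM in the shRNA control. Neither overlapped between groups, with log2 fold changes of 0.33 ± 0.0644 SE (adjusted p = 0.00144) and 0.31 ± 0.062 SE (adjusted p = 0.00206). The pair that carries 5S ribosomal RNA fell on either side of the threshold. RPL5 rose by 0.16 on the log2 scale (adjusted p = 0.0479), and RPL11 had a log2 fold change of 0.13 (adjusted p = 0.169) with overlapping groups. RPL10, which joins the subunit late near the peptidyl transferase centre, rose (log2 fold change 0.22, adjusted p = 0.0337). RPL41, the smallest of the ribosomal proteins, was not called, although its groups did not overlap (log2 fold change 0.17, adjusted p = 0.0863).

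None of the 3 stalk genes was called after depletion by edgeR with the filter on low counts, DESeq2 or limma voom, and none had an unadjusted p under 0.05 in that edgeR fit. The stalk, built of RPLP0 with dimers of RPLP1 and RPLP2, recruits the elongation factors. RPLP0 was at 1570, 1736 and 1506 CPM after depletion, against 1425, 1495 and 1460 CPM in the shRNA control, a narrow gap between the groups. Log2 fold changes were 0.14 for RPLP0, 0.13 for RPLP1 and 0.16 for RPLP2 (adjusted p = 0.294, 0.39 and 0.174). RPLP0 and RPLP2 passed with no filter on low counts (adjusted p = 0.0453 and 0.0353), in a fit of the 6 libraries alone (adjusted p = 0.0385 and 0.0204) and without vector control replicate 3 (adjusted p = 0.0253 and 0.0151), while RPLP1 passed in none of these 3.

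The level after depletion was also below that of the vector control line, which differs in construct, vector and doxycycline. For 80 of the 84 genes all 3 depletion libraries were below all 3 vector control libraries, against 21.9% of all tested genes and 41.7% of those with at least 50 CPM, and the median ratio of the means was 0.7. RPS7, the gene with the largest rise, averaged 568 ± 31.6 CPM after depletion and 749.8 ± 25.6 CPM in the vector control (SD, n = 3 each). The depletion and the control comparisons share the shRNA control libraries, so their values are not independent.

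**Figure D2:**
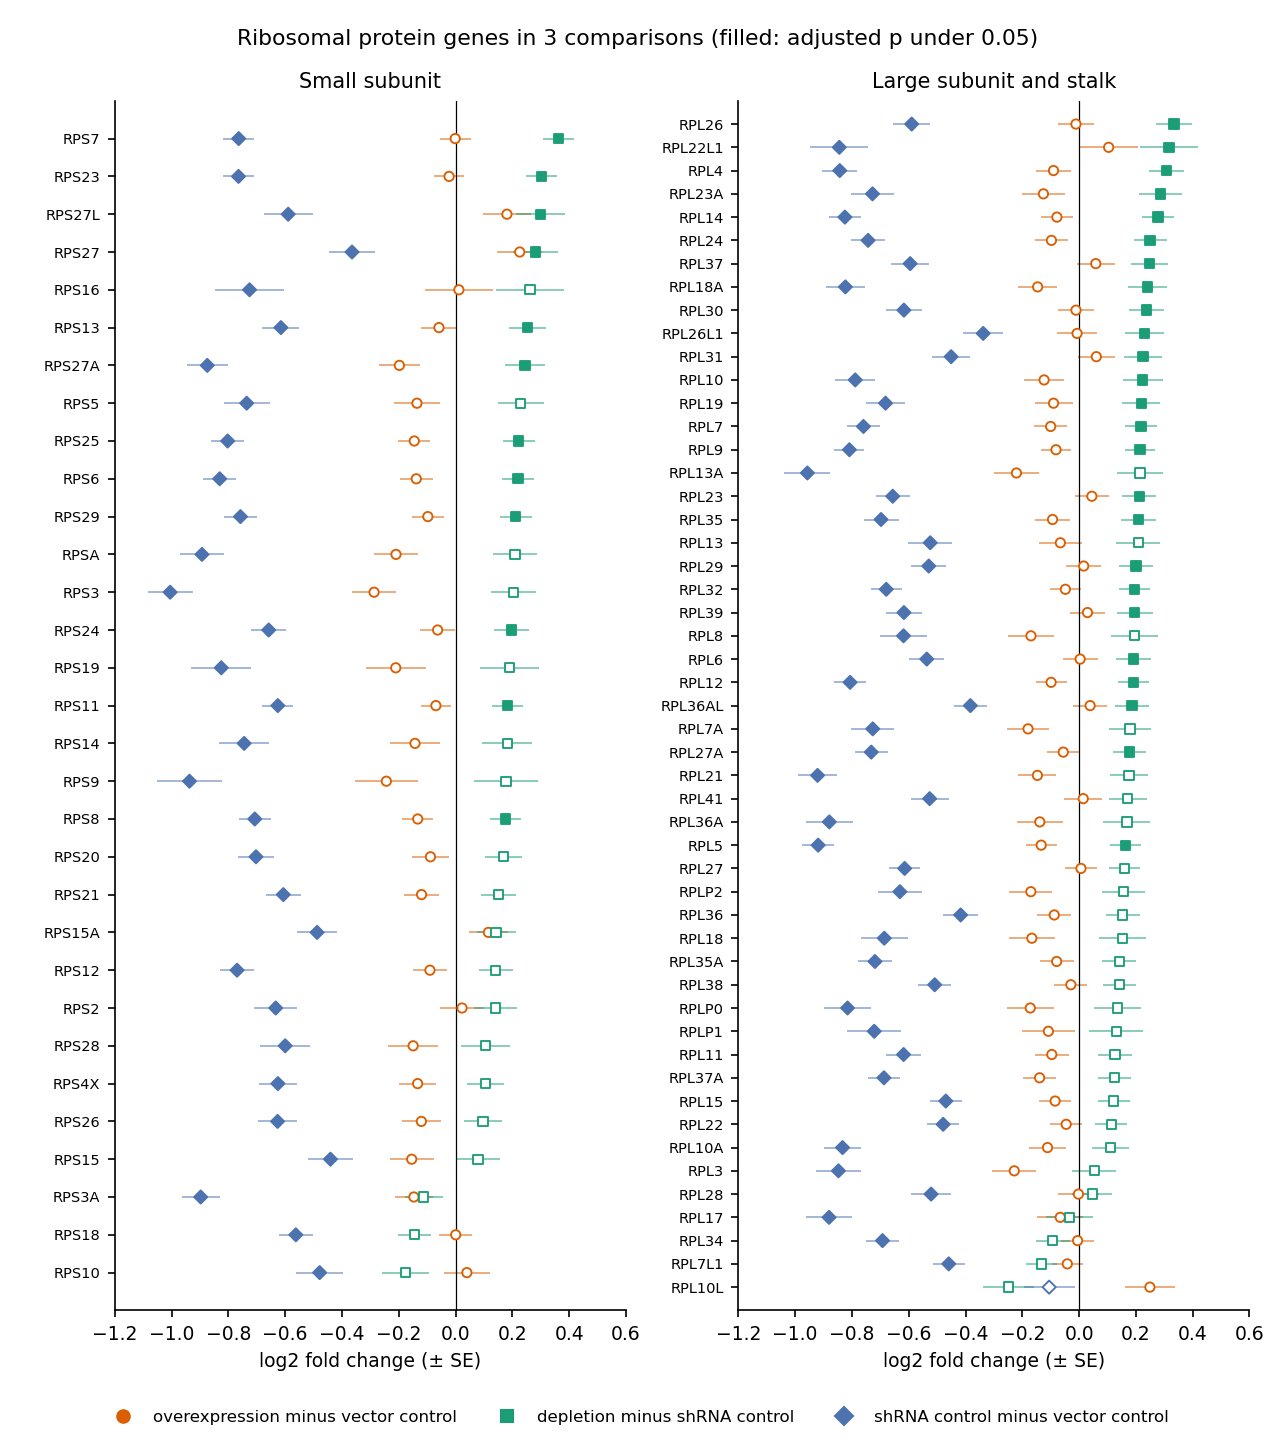
Log2 fold change (horizontal axis, with SE bars) of the 82 ribosomal protein genes with at least 5 CPM, 1 gene per line, for overexpression and depletion each against its own control and for the shRNA control against the vector control; filled symbols passed an adjusted p of 0.05. Depletion values lie mostly between 0.1 and 0.3, overexpression values around a median of -0.09 with none filled, and control differences from -0.11 to -1.01.

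Overexpression of USP22 left no gene past the threshold: 0 of 84 were called by edgeR, where 4.11% of all tested genes and 5.73% of those with at least 50 CPM were. At an unadjusted p under 0.05 there were 3 higher and 15 lower, and DESeq2 and limma voom called 1 each, RPS3 in both. The median log2 fold change was -0.09, or 0.94-fold, against -0.01 over all tested genes and -0.04 over those with at least 50 CPM. It was -0.05 without vector control replicate 3, which stands apart, and -0.13 without vector control replicate 2, with 10 and 35 genes at an unadjusted p under 0.05. Values were negative for 65 genes and positive for 19. Libraries did not overlap for 21 genes downward, against 12.8% of all tested genes and 23.7% of those with at least 50 CPM, and for 2 genes upward, against 9.64% of all tested genes.

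RPS3 was at 765, 764 and 821 CPM with overexpression, against 902, 869.7 and 1096 CPM in the vector control. The groups did not overlap, and the gap to the third vector control library was the widest (log2 fold change -0.29 ± 0.0787 SE, adjusted p = 0.0529). Without that library the log2 fold change was -0.18 (adjusted p = 0.046), a smaller value that passed. RPL3, which lies close to the peptidyl transferase centre, was at 1590, 1607 and 1721 CPM with overexpression, against 1778, 1773 and 2210 CPM in the vector control (log2 fold change -0.23, adjusted p = 0.12). RPS27, a zinc-finger protein of the small subunit, ran the other way. It was at 784, 809.5 and 805 CPM with overexpression, against 753, 712 and 586 CPM in the vector control, without overlap (log2 fold change 0.23 ± 0.08 SE, adjusted p = 0.135). The third vector control library was here the lowest of its group by a wide margin.

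Among the other preset genes, log2 fold changes on overexpression were -0.14 for RPS6, -0.21 for RPSA, -0.20 for RPS27A and -0.13 for RPL5 (adjusted p = 0.213, 0.157, 0.146 and 0.204). All 4 were lower in each overexpression library than in each vector control library. RPL11, RPL4, RPL10 and RPLP0 overlapped between groups, with log2 fold changes of -0.10, -0.09, -0.12 and -0.17. RPS7 and RPL26, which rose on depletion, had log2 fold changes of 0.00 and -0.01 here.

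The 2 perturbations use separate controls, and their effects were compared directly as overexpression effect minus depletion effect. This difference was negative and called for 28 genes and positive and called for 1, RPL10L, where 5.98% and 4.91% of all tested genes were. Among genes with at least 50 CPM, 13.8% were negative and called. Its median was -0.26. The negative calls numbered 10 to 15 without overexpression replicate 1 or 2, shRNA control replicate 1 or 3, or depletion replicate 1 or 2, and 50 without vector control replicate 3. Negative calls over all tested genes were 1560 of 26076 in the main fit. They were 1071 of 26860 without overexpression replicate 2 and 2746 of 26896 without vector control replicate 3. Of the 82 genes with at least 5 CPM, 60 had a negative value on overexpression and a positive value on depletion, 15 were positive on both, 4 negative on both and 3 the reverse. Taken separately, 64 of the 82 were negative on overexpression and 75 positive on depletion. A large overlap follows from these 2 counts alone. Across these genes the 2 log2 fold changes had a Pearson r of -0.077 and a Spearman rho of 0.12, a description over genes of the same libraries. The genes that rose most on depletion were not those lowest on overexpression.

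RPS3 had the largest negative difference with at least 5 CPM, -0.49 ± 0.111 SE (adjusted p = 0.00932), made of -0.29 on overexpression and 0.20 on depletion. Among the called genes RPS27A, RPL13A, RPSA, RPL23A and RPL4 followed, between -0.44 and -0.40. RPL23A stands at the exit tunnel, where the signal recognition particle docks. Its components were -0.13 on overexpression and 0.29 on depletion, of which only that on depletion passed the threshold (adjusted p = 0.395 and 0.0129). The differences of RPS3, RPS27A and RPL4 were called whichever library was left out. Those of RPL13A, RPSA and RPL23A were lost without overexpression replicate 2 (adjusted p = 0.0595, 0.0561 and 0.0558) or shRNA control replicate 1 (adjusted p = 0.0574, 0.0556 and 0.0525).

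**Figure D3:**
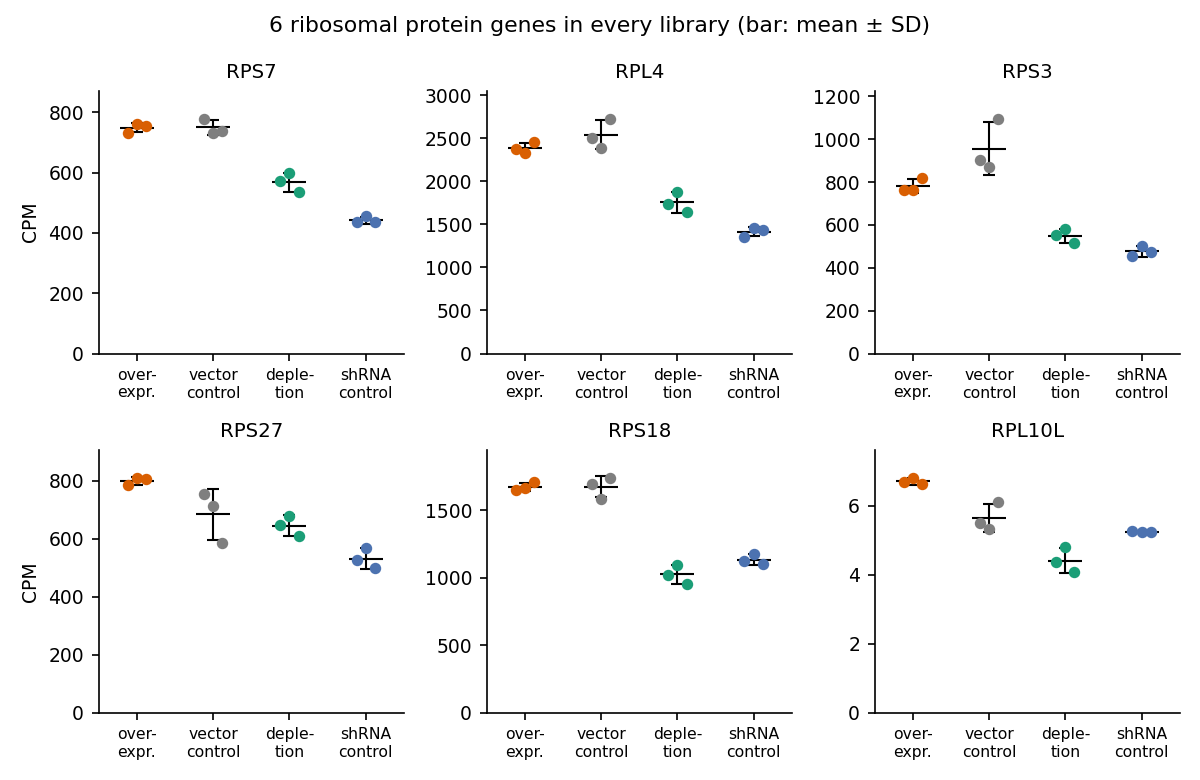
CPM (vertical axis, from 0) of 6 ribosomal protein genes in each of the 12 libraries, by group, with bars at the mean and whiskers of 1 SD (n = 3 each). RPS7, RPL4 and RPS3 are higher after depletion than in the shRNA control and lower there than in the vector control, while RPS18 and RPL10L are lower after depletion than in the shRNA control.

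Paralogs of ribosomal proteins are expressed beside a main copy, and some of them replace it in some tissues. Whether any of those in this set does so in these cells was not tested. Of the 8 in the set, RPL22L1, RPL26L1, RPL36AL and RPS27L rose on depletion, RPL7L1, RPL10L and RPL3L were not called, and RPL39L was not tested. RPL22L1, which can take the place of RPL22 on the ribosome, was at 313, 332 and 290.5 CPM after depletion, against 252, 261 and 237 CPM in the shRNA control. The groups did not overlap, but the spread in the fit was wide (log2 fold change 0.32 ± 0.102 SE, adjusted p = 0.0384). Its vector control libraries, at 519, 474 and 355 CPM, spread more than those of any other group of this gene. RPL22 itself averaged 153 ± 9.19 CPM after depletion and 142 ± 4.85 CPM in the shRNA control (SD, n = 3 each; log2 fold change 0.11, adjusted p = 0.187).

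RPL22L1 per RPL22 read was 2.04, 2.04 and 2.01 after depletion, against 1.79, 1.78 and 1.73 in the shRNA control. It was 2.46, 2.61 and 2.49 with overexpression, against 2.57, 2.38 and 1.85 in the vector control. The depletion groups were apart (exact two-sided permutation p = 0.1, the smallest that 3 against 3 allows), and the overexpression groups overlapped (exact p = 0.3). These ratios are not per length, so they compare libraries and not the amounts of the 2 mRNAs.

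RPS27L, a p53 target whose protein is nearly identical to RPS27, rose in step with its main copy. It was at 101, 104.4 and 93.2 CPM after depletion, against 82.3, 86.4 and 74.2 CPM in the shRNA control (log2 fold change 0.30 ± 0.0854 SE, adjusted p = 0.0203). RPS27 had a log2 fold change of 0.28 (adjusted p = 0.0201), and the ratio of the pair averaged 0.154 after depletion and 0.152 in the shRNA control. RPL26L1 and RPL36AL, an autosomal retrocopy of the X-linked RPL36A, rose by 0.23 and 0.19 on the log2 scale. RPL36A had a log2 fold change of 0.17 that was not called.

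RPL7L1 went against its main copy. It was at 310, 326 and 289.5 CPM after depletion, against 329, 347 and 339.9 CPM in the shRNA control, with no overlap (log2 fold change -0.13 ± 0.0554 SE, adjusted p = 0.111). RPL7 rose (log2 fold change 0.22, adjusted p = 0.0131), and RPL7L1 per RPL7 read was 0.364, 0.361 and 0.37 after depletion, against 0.461, 0.462 and 0.474 in the shRNA control. That is the lowest against the highest of the 4 groups (exact two-sided permutation p = 0.1, the smallest possible).

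RPL10L, an intronless copy of RPL10 that stands in for it when the X chromosome is silent in spermatogenesis, was low throughout. It was at 4.36, 4.82 and 4.08 CPM after depletion, against 5.26, 5.25 and 5.24 CPM in the shRNA control. With overexpression it was at 6.69, 6.81 and 6.63 CPM, against 5.51, 5.34 and 6.1 CPM in the vector control. It was thus lower after depletion and higher with overexpression, without overlap in either, the opposite of most members. Neither comparison passed (log2 fold change -0.25, adjusted p = 0.0649, and 0.25, adjusted p = 0.14), while their difference did (0.50 ± 0.126 SE, adjusted p = 0.0181). This call was lost without overexpression replicate 2 and without depletion replicate 1 (adjusted p = 0.0508 and 0.0507). RPL10L and RPL10 are close in sequence, and no source used here says how reads matching both were counted, so these values are uncertain. RPL3L, the muscle copy of RPL3, stayed between 0.386 and 1.02 CPM and was called in no comparison.

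**Figure D4:**
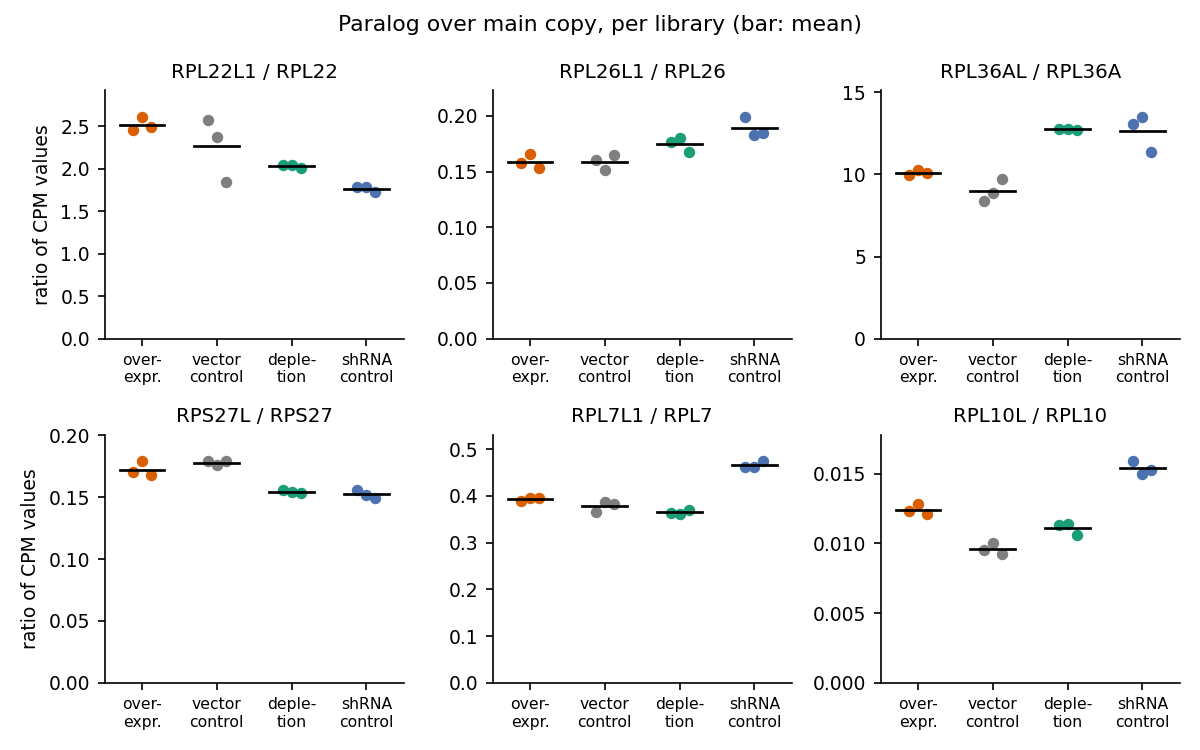
Ratio of paralog CPM to main-copy CPM (vertical axis, from 0) in each of the 12 libraries, for 6 pairs, by group, with a bar at the mean. RPL7L1 over RPL7 and RPL10L over RPL10 are highest in the shRNA control, and RPL22L1 over RPL22 is lower in both shRNA groups than in the overexpression group.

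The genes that did not follow the rest on depletion were looked up by position after their values had been seen. Of the 7 negative values, 5 belong to chromosomes 6 and 4: RPL7L1, RPS10 and RPS18 on chromosome 6, and RPS3A and RPL34 on chromosome 4. RPS18, a protein of the small subunit head whose tract is printed above, was at 1024, 1098 and 955 CPM after depletion, against 1124, 1179 and 1099 CPM in the shRNA control. RPS10, which ZNF598 ubiquitinates on collided ribosomes, was at 41.2, 43.1 and 38 CPM after depletion, against 46.5, 48.3 and 43.4 CPM in the shRNA control. Neither overlapped between groups, and neither was called in the fit of all 12 libraries (log2 fold change -0.15 and -0.18, adjusted p = 0.0997 and 0.158). Both were called lower in a fit of the 6 depletion and shRNA control libraries alone (adjusted p = 0.0403 and 0.0167), as were RPL7L1 and RPL10L.

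Each gene was then set beside its neighbours, up to 25 expressed genes on either side in the order of the GENCODE annotation. The neighbours of RPL7L1, RPS10 and RPS18 had median log2 fold changes of -0.37, -0.36 and -0.33 on depletion, and those of RPL34 and RPS3A of -0.23 and -0.20. RPL10A, also on chromosome 6, had neighbours at -0.34 and was itself at 0.11 (adjusted p = 0.266). RPS12 on chromosome 6 and RPL9 on chromosome 4 had neighbours at 0.14 and 0.09 and were themselves at 0.14 and 0.21. Chromosome 6 as a whole had the lowest median on depletion, -0.12 over 570 expressed genes.

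Over 82 genes the value on depletion and that of the neighbours had a Pearson r of 0.63 and a Spearman rho of 0.47. These were 0.32 and 0.37 for the 74 genes off chromosomes 4 and 6. The points share libraries, and neighbours of nearby genes are in part the same. On overexpression the values were 0.43 and 0.39, with RPL3 at -0.23 beside chromosome 22 neighbours at -0.26. In the comparison of the controls they were 0.1 and 0.14. On depletion 81 of the 82 genes were above their neighbours, by a median of 0.17, and the exception was RPL10L. In the shRNA control none of the 82 was above its neighbours, and the median gap was -0.65. The neighbours' values themselves had medians of -0.005 on depletion and -0.04 between the controls. These counts therefore largely repeat the shift of the set given above. How often other genes lie above their own neighbours was not counted. What sets the neighbours' values was not tested.

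**Figure D5:**
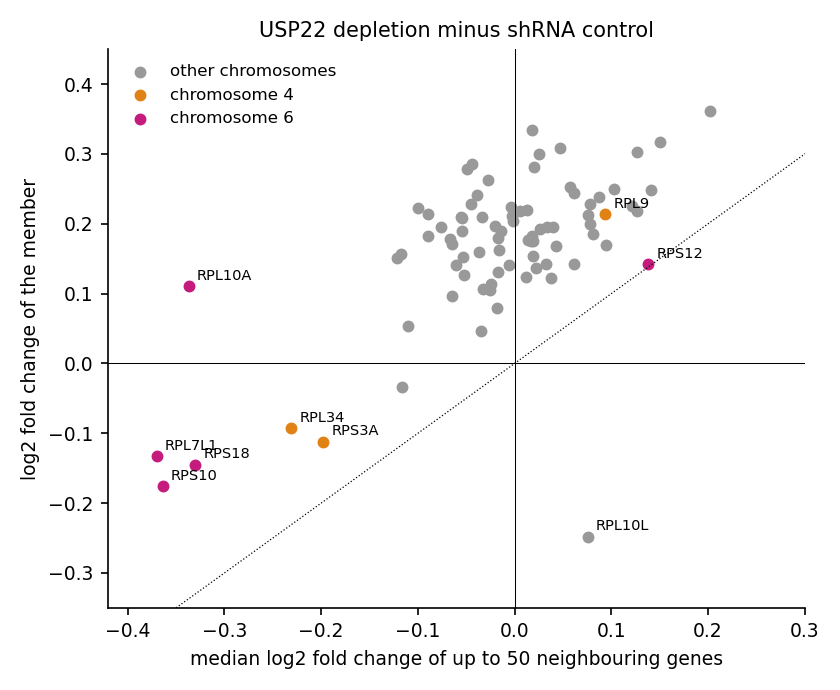
Log2 fold change on depletion of 82 ribosomal protein genes (vertical axis) against the median of up to 50 expressed neighbouring genes (horizontal axis), with chromosomes 4 and 6 in colour and a dotted line where both are equal. All genes but RPL10L lie above the line, and the low genes RPL7L1, RPS10, RPS18, RPL34 and RPS3A have neighbours between -0.37 and -0.20.

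Other mRNAs with a 5′TOP tract, mostly translation factors, were taken as a fixed list of 22, of which 21 were tested. On depletion 10 were higher and 1 lower, with a median log2 fold change of 0.20, beside 9.4% and 10.4% of all tested genes. HNRNPA1, a splicing factor, averaged 606 ± 36.3 CPM after depletion and 455 ± 21.9 CPM in the shRNA control (SD, n = 3 each; log2 fold change 0.42, adjusted p = 9.52e-05). NPM1, a nucleolar chaperone of ribosome assembly, was at 1080, 1150 and 987 CPM after depletion, against 791, 879 and 845 CPM in the shRNA control. Its groups did not overlap (log2 fold change 0.35, adjusted p = 0.00068). BTF3, of the nascent chain complex, and EEF1B2, the exchange factor of elongation factor 1, rose by 0.28 and 0.33 on the log2 scale. The gene that was lower was VIM, the intermediate filament vimentin, at a mean of 4.88 ± 0.569 CPM after depletion and 6.69 ± 0.276 CPM in the shRNA control.

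In the shRNA control 19 of the 21 were lower than in the vector control and 1, VIM, was higher, beside 21.3% and 21.7% of all tested genes, with a median of -0.72. EIF4B, an initiation factor, and GAS5, a noncoding host of small nucleolar RNAs, had log2 fold changes of -0.94 and -0.95, and NPM1 and HNRNPA1 of -1.05 and -0.98. On overexpression 1 of the 21 was called, beside 4.11% of all tested genes and 5.73% of those with at least 50 CPM. EIF3L, a subunit of initiation factor 3, was at 278, 274 and 276 CPM with overexpression, against 334, 315 and 357 CPM in the vector control. It was lower without overlap (log2 fold change -0.28, adjusted p = 0.0125).

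FAU, a fusion gene that encodes a ubiquitin-like domain and a ribosomal protein, and RACK1, a scaffold on the small subunit, lie outside the symbol rule. They were not called on depletion or overexpression, and both were lower in the shRNA control than in the vector control. Their log2 fold changes on depletion were 0.16 and 0.20, on overexpression -0.24 and -0.20, and between the controls -0.67 and -0.81. Of 6 tested elongation genes, which overlap the list above, EEF1B2 was higher on depletion and EEF1A2, an isoform of muscle and neurons, was lower (-0.42, adjusted p = 0.00116). Over all tested genes 9.4% were higher and 10.4% lower. EEF1A1, the main isoform, had a log2 fold change of -0.07 on depletion and -0.66 between the controls, of which only that between the controls was called.

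The regulators of 5′TOP translation were tested as 19 genes around mTORC1. On depletion 4 were higher and 2 lower, beside 9.4% and 10.4% of all tested genes. Among genes with at least 50 CPM the shares were 18.1% and 14.5%, and both counts were near these. EIF4EBP1, a translation repressor that mTORC1 inactivates, was at 94.8, 102 and 94.3 CPM after depletion, against 50, 53.6 and 52.5 CPM in the shRNA control. DDIT4, an inhibitor of mTORC1 induced by stress, was at 63.7, 70.1 and 64.3 CPM after depletion, against 36.0, 35.3 and 35.9 CPM in the shRNA control. Both were far apart between groups (log2 fold change 0.90 and 0.89, adjusted p = 9.28e-07 and 5.85e-05). SESN2 and SESN1, further inhibitors of mTORC1, rose by 0.37 and 0.29 on the log2 scale. TBC1D7 and TSC2, of the tuberous sclerosis complex that restrains mTORC1, were lower (-0.31 and -0.30).

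LARP1 had a log2 fold change of 0.09 on depletion (adjusted p = 0.293), MTOR of 0.13 and RPS6KB1, the S6 kinase, of 0.10, none of them called. In the shRNA control 9 of the 19 were lower than in the vector control and 3 higher, beside 21.3% and 21.7% of all tested genes and 42.9% and 20.9% of those with at least 50 CPM. SESN1, EIF4EBP1 and DDIT4 were among the lower (-1.10, -1.08 and -0.89), and TSC2 was higher (0.69). On overexpression SESN1 alone of the 19 was called, and it was higher (0.27, adjusted p = 0.0384). The share called there was 4.11% of all tested genes and 5.73% of those with at least 50 CPM. These are mRNA levels, and the activity of mTORC1 was not measured.

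Of 14 dedicated chaperones and quality-control factors of ribosomal proteins, 4 were higher on depletion, beside 9.4% of all tested genes and 18.1% of those with at least 50 CPM. PDCD2, the chaperone of RPS2, averaged 89.9 ± 5.45 CPM after depletion and 74.7 ± 0.666 CPM in the shRNA control (SD, n = 3 each; log2 fold change 0.27, adjusted p = 0.00308). LTV1, an assembly factor of the small subunit, NAP1L1, a histone chaperone that is also in the 5′TOP list, and BCCIP, the chaperone of RPL23, rose by 0.23, 0.23 and 0.18 on the log2 scale. In the shRNA control 9 of the 14 were lower than in the vector control, beside 21.3% and 42.9% of those same sets of genes. On overexpression edgeR called 0, beside 4.11% of all tested genes and 5.73% of those with at least 50 CPM. At an unadjusted p under 0.05, 0 were higher and 3 lower, with a median log2 fold change of -0.10.

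Reads shared between near-identical sequences limit some of these values. Ribosomal proteins have many processed pseudogenes, and 1593 rows of the table carry such names. Together they held 0.0573% to 0.0716% of the reads of a library, far less than the genes themselves. Of the 541 that were tested, 13 were higher and 15 lower on depletion, beside 9.4% and 10.4% of all tested genes. In the shRNA control 40 were higher and 62 lower than in the vector control, beside 21.7% and 21.3%. On overexpression 1 was higher and 1 lower, beside 4.11% of all tested genes in either direction. The median log2 fold change of the 541 was 0.03 on depletion and -0.08 between the controls, against 0.18 and -0.69 for the genes. The rows with most reads were RPS2P46, RPS28P7 and RPL32P3, at means of 233, 27.9 and 15.2 CPM. Their log2 fold changes between the controls were -0.73, -0.40 and 0.34, all called. On depletion they were 0.09, 0.10 and -0.10, none called. Whether these rows share reads with their genes was not tested.

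The elongation factor gene EEF1G had 34 reads in all 12 libraries together. The read-through rows RPL17-C18orf32, RPL36A-HNRNPH2 and RPS10-NUDT3 had 0 reads in every library. Reads of duplicated or overlapping loci may therefore be lost from the table, and the levels of RPL17, RPL36A and RPS10 are uncertain for that reason.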

How the data were processed

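The measurements are raw read counts per Ensembl gene, deposited by the authors as 1 table for the 12 libraries. Per the labels' protocols the kit kept strand and took total RNA. The submitters' processing notes list featureCounts 1.5.0-p3, STAR 2.5.2a, hg19 and DESeq2 1.14.1. No source used here gives the annotation release, the strand option or how reads with several loci were treated. The GENCODE and RefSeq tables used for names, gene order and starts are on GRCh38, so the start windows printed are RefSeq coordinates on that build and no hg19 coordinates are given.

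edgeR 4.0.16 (R 4.3.3) was run with filterByExpr by group, TMM, glmQLFit over 4 groups and glmQLFTest, adjusting by Benjamini-Hochberg over 26076 genes. Each SE is the fold change divided by the root of its F value. Alternatives used DESeq2 1.42.0, limma 3.58.1 (voom), other scalings and filters, and each library left out in turn. The fit was also run on simulated data. The outcome of that run is not reported here, and it bears on none of the calls above.

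The members, lists and tests were chosen with earlier results of these data known. Named genes were 15 preset members, the paralogs with their main copies, the 6 largest called rises and falls per comparison at 5 CPM or more, and up to 4 called genes per list. Genes that make up counts of 5 or fewer, those described by position, the smallest control differences, and RPL3 and RPS27 on overexpression were named after their values were seen. Individual values of a few genes counted in the totals are not reported here. Replicate numbers did not pair the libraries.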

Additional observations from a re-analysis of the deposited data

How the results depend on the processing

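The lower level in the shRNA control than in the vector control kept 78 to 83 calls under every alternative run, and all medians kept their sign. The count after depletion moved most. It was 57 with no filter on low counts and 64 higher with 4 lower in a fit of only the 6 libraries. With at least 1 CPM in at least 3 libraries 50 were higher and 1, RPL10L, was lower, and with TMM factors set without these genes 45 were higher. Over all tested genes the higher calls were 3106 of 44443 with no filter and 2689 of 15897 with the CPM filter. With those TMM factors they were 2763 of 26076. Leaving out 1 library at a time gave 14 to 66 higher and 0 to 4 lower ribosomal protein genes, with medians from 0.16 to 0.25. On overexpression, calls appeared in single alternatives. There was 1 lower without the 20 most abundant genes, 1 by DESeq2 and 1 by limma voom. With no filter 1 was higher and 5 were lower, and with the CPM filter 1 was higher and 1 lower. Over all tested genes these fits called 939 higher and 1123 lower of 44443, and 525 higher and 678 lower of 15897. Leaving out 1 library gave 0 to 1 higher and 0 to 2 lower ribosomal protein genes. For the difference of the effects, leave-one-out counts ran from 0 to 1 higher and from 10 to 50 lower. The causes of these moves were not tested, the smaller number of samples in a leave-one-out fit included.

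Deviations of same-numbered libraries correlated by -0.022 to 0.0827, so the numbers were not taken as pairs. With a replicate block 37 genes were higher on depletion, 36 of them shared with the fit without it (RPL5 had an adjusted p of 0.0556), 82 were lower between the controls, 0 were called on overexpression, and 27 were lower and 1 higher for the difference. With 3 libraries a group, shifts near the SE of about 0.06 log2 were not detectable, and reads lost to near-identical loci limit RPL17, RPL36A and RPS10.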
